A study of Homo sapiens with 8 samples.

Results

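The response of HCT116 cells to miR-139-3p was read from 1 two-colour microarray. HCT116 is a human colorectal cancer cell line. RNA of cells transfected with miR-139-3p (Lipofectamine RNAiMAX) was labelled with Cy5, and RNA of mock cells, which the labels give as not transfected, was labelled with Cy3. The series held 8 such arrays, 4 in HCT116 cells and 4 in PANC-1 cells. The other 3 HCT116 arrays carried miR-139-5p, miR-143-5p or, by its label, miR-143-3p in Cy5, and each had a mock channel of its own. All lay on 1 slide and were read in 1 scan, and no array had its dyes swapped, so that dye and treatment cannot be told apart. The labels of the array gave neither a time after transfection nor a dose, and by the study's methods mock cells received no precursor.

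Members were taken by a rule that used no ratio: the probe was no control and stood well above background in 1 channel or both. It kept 26953 of 58201 probes, which gave 20708 of 43317 genes when each gene was read from its brightest probe, and 15227 of these had a RefSeq symbol. Of the genes, 18392 were above background in both channels, 562 in mock cells alone and 1754 in miR-139-3p cells alone. The line was checked against colon epithelial markers, of which 8 of 13 were detected: the spot signal was 4393 in mock and 3549 in miR-139-3p cells for EPCAM, 14423 and 14615 for KRT18, and 24858 and 30164 for KRT19. VIL1, CDH17, LGALS4, GPA33 and CEACAM5, markers of differentiated colon epithelium, were not well above background. Of the mesenchymal markers 7 of 11 were detected, with signals of 151 or lower, and of the leukocyte markers 4 of the 7 on the array, where PTPRC stood at 26.8 and 32.5 against a local background of 18 and 20, and CD79A was the brightest (267 and 395).

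A microRNA guides Argonaute to messenger RNAs through its seed, the bases near its 5′ end, and the paired messages are translated less and decay sooner. Both strands of the miR-139 hairpin can enter the complex, and because their seeds differ they pair with different messages. Genes that the microRNA does not bind can move too, through the factors that control them. Among such factors are p53, which answers DNA damage, and MYC and E2F, which drive growth and entry into DNA synthesis.

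The miR-139 sequences (RefSeq, GRCh38.p14) are shown because the seed sets which messages each strand can pair with. The hairpin lies at chr11:72615063-72615130 on the minus strand, miR-139-5p at chr11:72615102-72615124 and miR-139-3p at chr11:72615066-72615088. Capitals in the mature strands mark bases 2 to 8, the seed.
MIR139 hairpin: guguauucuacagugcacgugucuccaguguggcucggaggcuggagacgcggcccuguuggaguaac
hsa-miR-139-5p: uCUACAGUgcacgugucuccagu
hsa-miR-139-3p: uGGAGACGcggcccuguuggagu
The seeds of both strands differ, GGAGACG for miR-139-3p and CUACAGU for miR-139-5p. The array of miR-139-5p therefore served beside the miR-139-3p array as a transfection of the other strand, with another seed.

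Ratios below are normalised log2 ratios of miR-139-3p over mock, signals are mean spot intensities with the background still in them, and a gene was called lower or higher at 2-fold (a log2 ratio of -1 or 1). With 1 array there was no test and no error of the ratio. The spread of a gene's mock level over the 4 HCT116 mock channels, called mock SD here and given in log2 units, served as the one measure of error, with a median over genes of 0.077. It takes in the gap between the mocks of the miR-139 and miR-143 arrays described below, and does not measure error of the Cy5 channel. Fewer cells holding an RNA and less of it in each cell cannot be told apart in such bulk RNA.

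miR-139-3p cells had 585 genes at least 2-fold lower, 2.82% of the detected genes, and 436 at least 2-fold higher, 2.11%. The median of all genes was 0.01. On the miR-139-5p array 0.201% of genes were lower and 0.0587% higher. The shares were 1.0% and 0.356% for miR-143-5p, and 0.925% and 0.517% for the array labelled miR-143-3p. Between mock channels, 0.0307% of genes differed 2-fold from the mock of the miR-139-5p array, but 1.14% and 1.17% from the mocks of the miR-143 arrays. The mocks of the miR-139 and miR-143 arrays thus differed from each other. Against the mean of both miR-143 mocks, 386 of the 585 lower genes and 332 of the 436 higher genes were past 2-fold on the same side, and the number of calls that stayed so is given for the groups below. Of the lower genes 167 had other detected probes, and 58 of these were past 2-fold over the median of all probes; of the higher genes 46 of 127 were.

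The RNAs that were lower and those that were higher were of different kinds. Of the 543 lower genes with a symbol, 531 coded for proteins (97.8%), against 86.9% of all detected genes. Of the 352 higher genes, 234 did (66.5%), while 51 were long noncoding RNAs, 31 small nucleolar RNAs, 13 small Cajal body RNAs and 10 small nuclear RNAs. Small nucleolar RNAs were 8.81% of the higher genes and 1.37% of all, and small Cajal body RNAs 3.69% and 0.138%. Lower genes had been abundant in mock cells, with a median level of 9.79 on the normalised log2 scale against 7.47 for all genes, and higher genes had a median of 8.05. The processing favours this: the lowest Cy5 level of a probe well above background was 5.74, so a gene dim in mock cells could hardly be called lower. The share of coding genes among the lower ones may depend on this too, which was not tested.

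Outside the 29 candidates of the study, which it chose in part on this array, the lowest gene whose probes shared a sign was ADGRF1, an adhesion G protein-coupled receptor, whose signal was 872 in mock and 63.6 in miR-139-3p cells (log2 ratio -3.26, mock SD 0.401). Its other probe gave only -0.28. CD44, the hyaluronan receptor, had signals of 4727 and 686 (-2.74, mock SD 0.222), and its other probe gave -0.61. GAL, which encodes the neuropeptide galanin, had 4303 and 634 (-2.71, mock SD 0.114). For these receptor and peptide genes the channels lay far apart, but 2 of the 3 rested on 1 of 2 probes.

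COX8A, a subunit of cytochrome c oxidase, fell from 11828 to 1852 (-2.68, mock SD 0.121), and its other probe gave -2.72. TOMM34, a cochaperone of mitochondrial import, fell from 1405 to 224 (-2.48), with -2.16 at its other probe. FABP5, a fatty acid carrier, fell from 3868 to 760 (-2.31), and its 2 other probes gave -2.35 and -2.27. These genes were low at every detected probe, and none of the 3 was past 2-fold on another HCT116 array (range -0.74 to 0.54). The other lowest genes were HS3ST1, a heparan sulphate sulphotransferase (1550 and 197), SLC7A5, OBSL1 (1238 and 220), PGAP4, which acts on GPI anchors (810 and 138), PLAU and EMP1 (556 and 91.4). MYC, described below, was lower than most of these but stood outside the naming rule because a repeat spot of its probe was an outlier. EMP1 and PLAU had the most variable mocks of the 12, with mock SDs of 1.08 and 1.02, and stood lower still against the miR-143 mocks, at -4.22 and -4.00.

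The highest gene was TP53INP1, a p53 target that acts in cell death and autophagy, with signals of 107 in mock and 1309 in miR-139-3p cells (3.24, mock SD 0.739), and 1.12 at its other probe. NEAT1, the RNA scaffold of nuclear paraspeckles, rose from 1112 to 8285 (2.83, mock SD 0.461), and its 2 other probes gave 1.40 and 1.53. SNHG19, a small nucleolar RNA host gene, rose from 1210 to 8775 (2.80), with a mock SD of 0.0523. Most of the 12 highest genes were noncoding, and the coding ones were TP53INP1, BBC3 and SLC2A14, a glucose transporter (59.4 and 528, 2.54). THUMPD3-AS1 (127 and 1028, 2.72) and ZNF143-AS1 (106 and 860, 2.68) are antisense RNAs. LINC00482 was high at 1 probe (2.87) but gave 0.11 and 0.73 at its others.

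**Figure D1:**
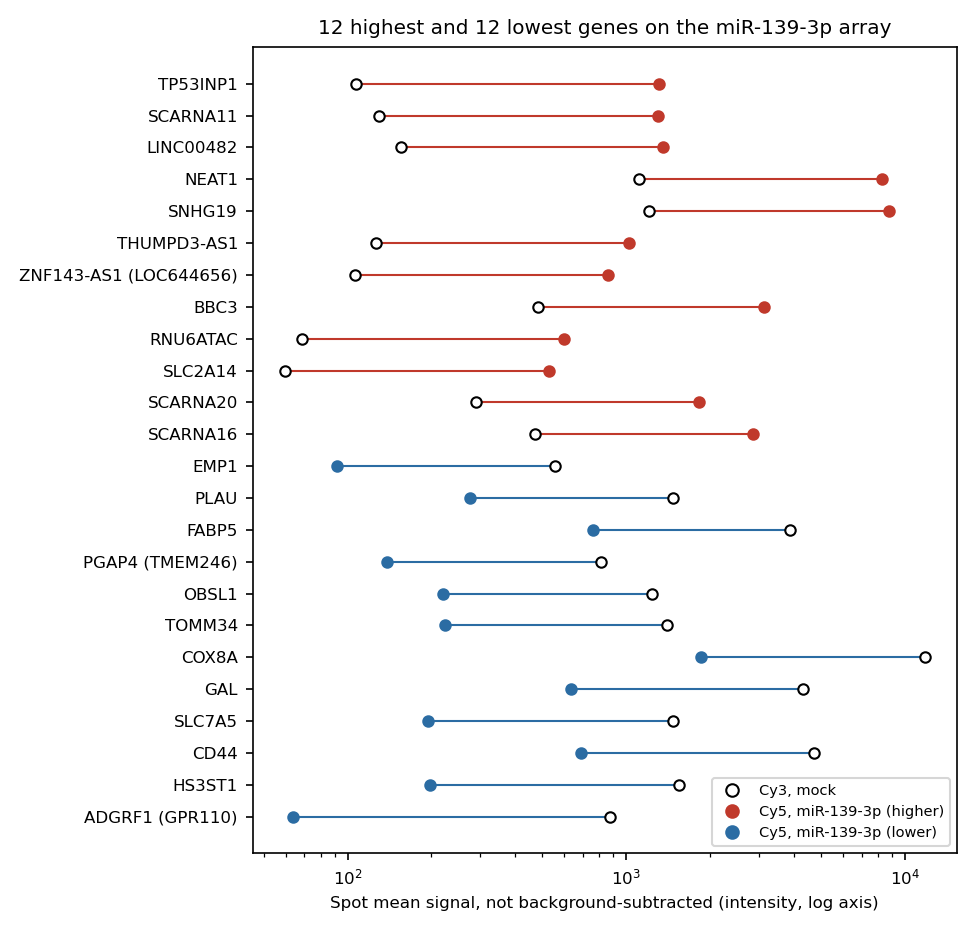
Mean spot signal (intensity, log axis, background not subtracted) of the 12 highest and 12 lowest genes on the miR-139-3p array; open circles are mock (Cy3), filled circles miR-139-3p (Cy5), and a line joins the channels of a gene. The channels lie apart for each gene, from 107 to 1309 for TP53INP1 at the top to 872 and 63.6 for ADGRF1 at the bottom.

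p53 targets were higher as a group. No detected member of the 3 p53 lists was 2-fold lower. Among targets that act in cell cycle arrest or feed back on p53, 6 of 14 rose, where 2.11% of all genes did, and the median was 0.76. CDKN1A, the p21 inhibitor of cyclin-dependent kinases, rose from 78.3 to 323 (1.65, mock SD 0.586). MDM2, the ligase that degrades p53, rose from 172 to 576 (1.56), PPM1D, a phosphatase that turns p53 signalling off, from 228 to 833 (1.72), SESN1 from 57.5 to 355 (2.08) and BTG2, an antiproliferative factor, from 284 to 1136 (1.88). GADD45A, with 349 and 725, stood just under the limit at 0.99.

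Among apoptosis targets 8 of 14 rose, with a median of 1.09. BBC3 encodes PUMA, which binds BCL2 and its kin, and rose from 483 to 3114 (2.60, mock SD 0.393). TP53I3 rose from 481 to 2314 (2.19, mock SD 0.848), and the death receptors TNFRSF10B and FAS from 943 to 3344 (1.78) and from 99.5 to 325 (1.41). TNFRSF10C, a decoy receptor, had 1.21 (mock SD 0.781), and PIDD1, AEN and TRIAP1 were higher by 1.07 to 1.14. Other targets of the same arm stood near 0: BAX had 928 and 946 (0.02), AIFM2 579 and 549 (-0.08), and PERP 1816 and 1321 (-0.46).

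Among targets in repair and metabolism 8 of 17 rose, and the median was 1.0. POLH, the polymerase that passes ultraviolet damage, rose from 115 to 669 (2.24), TIGAR, which limits glycolysis, from 90.9 to 402 (1.79), DDB2, a sensor of ultraviolet damage, from 1019 to 3080 (1.55), DRAM1, an autophagy factor, from 272 to 853 (1.53) and FDXR, ferredoxin reductase, from 4971 to 13479 (1.39). The size of the p53 shift depended on the mock. Against the miR-143 mocks the 3 medians were 0.39, 0.40 and 0.41, and 4 of the 6 arrest, 2 of the 8 apoptosis and 4 of the 8 repair calls stayed past 2-fold. BTG2 and TP53I3 stood at 0.85, CDKN1A at 0.79, FAS at 0.28 and TNFRSF10C at 0.19, while BBC3 (1.92), TP53INP1 (2.03) and TNFRSF10B (1.42) were past 2-fold against either. On the other 3 arrays the list medians ranged from -0.09 to 0.51. Single targets rose there too: CDKN1A had 1.16 on the miR-143-5p array and 1.35 on the one labelled miR-143-3p. On the latter TP53INP1 had 1.41 and TP53I3 1.11, while TP53INP1 had -0.86 on the miR-143-5p array. MDM2 stayed between -0.07 and 0.18 on the 3 arrays.

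Cell cycle genes of G1 and S moved both ways, 3 of 21 lower and 4 higher, with a median of 0.00. CDKN1C and CDKN1B, which encode the p57 and p27 inhibitors, rose from 375 to 1401 (1.80) and from 184 to 454 (1.16). CDK6, a kinase that cyclin D activates, rose from 1141 to 4109 (1.80). CCNE1, cyclin E1, fell from 1580 to 340 (-2.12, mock SD 0.101), CCNE2 from 180 to 71.2 (-1.06, with -0.32 at its other probe), and E2F2 from 692 to 226 (-1.49). E2F2 (-0.98) and CDKN1A were short of 2-fold against the miR-143 mocks, and the other 2 lower and 3 higher genes were past it. Cyclin D1 (CCND1) had 446 and 674 (0.56), and E2F1 171 and 91.7 (-0.76).

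The small RNAs that guide modification of other RNAs were higher, but not all classes alike. Small Cajal body RNAs guide the modification of spliceosomal RNAs, and 13 of 21 rose, with a median of 1.34 and none below 0. SCARNA11 had signals of 130 and 1305 (3.03), SCARNA20 of 288 and 1833 (2.53), SCARNA16 of 470 and 2845 (2.51) and SCARNA8 of 247 and 1276 (2.22), with mock SDs of 0.182 or less. Of the H/ACA small nucleolar RNAs, which guide pseudouridylation, 29 of 94 rose, with a median of 0.48. SNORA80E had 305 and 1818 (2.45, mock SD 0.638) and SNORA48 578 and 3240 (2.41). Of the C/D box RNAs, which guide methylation of ribose, only 2 of 114 rose, SNORD38B (132 and 464, 1.58) and SNORD46 (83.3 and 232, 1.16), and SNORD86 fell from 1018 to 333 (-1.53), with a median of 0.09.

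Against the miR-143 mocks the medians were 1.53 for the Cajal body RNAs and 0.70 for the H/ACA RNAs, with 12 of the 13 and all 29 calls still past 2-fold, while SNORD86 stood at -0.93. Both classes also had positive medians on the miR-143 arrays, 0.87 and 0.63 for Cajal body RNAs and 0.31 and 0.23 for H/ACA RNAs, while the miR-139-5p array gave 0.01 and -0.03. Most of these RNAs lie in introns of host genes, and a probe inside one cannot tell the mature RNA from the unspliced host transcript. Of the 22 detected small nucleolar RNA host genes 3 rose, SNHG19, SNHG21 (116 and 525, 1.87) and SNHG10 (85.5 and 257, 1.26), and their median was 0.20.

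Small nuclear RNAs were looked at only after their values had been seen. Of 17 detected, 10 rose, but 10 of the 17 were members of the SNAR family, whose copies are alike in sequence and whose probes may share signal. Of the other 7, 5 rose with a median of 1.19. RN7SK, which holds back the elongation kinase P-TEFb, rose from 5800 to 25719 (2.09, mock SD 0.0992). RNU6ATAC, RNU4ATAC and RNU11, of the minor spliceosome, rose from 68.4 to 600 (2.59), from 23158 to 55343 (1.19, but 0.26 at its other probe) and from 114 to 363 (1.41), while RNU12 had 72 and 122 (0.48). The U1 variant RNVU1-18 rose as well (1814 and 3893, 1.07), and the U2 RNA RNU2-1 stood at the limit (492 and 1020, 1.0). Some of these also rose on the miR-143-5p and miR-143-3p-labelled arrays over their own mocks. RNU2-1 had 1.65 and 1.53 there, RNVU1-18 1.02 and 1.19, and RN7SK 0.67 and 1.52, while RNU6ATAC and RNU11 had 0.41 to 0.56. TERC, the telomerase RNA and an H/ACA RNA itself, rose from 746 to 2325 (1.59, mock SD 0.625), and RN7SL1 of the signal recognition particle from 5809 to 27986 (2.21), a rise it also had on the miR-139-5p array (1.32). RMRP stood at 699 and 696 (-0.01), but had 1.44 and 1.12 on the miR-143 arrays. The 28S ribosomal RNA probe (RNA28SN5) was higher too, at 37463 and 85666 (1.12), as was RPPH1, the RNA of RNase P (249 and 574, 1.1). Ribosomal RNA did not rise at every probe: RNA18SN5 (6091 and 7427, 0.25) and RNA5-8SN5 (489 and 565, 0.19) stood inside 2-fold.

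**Figure D2:**
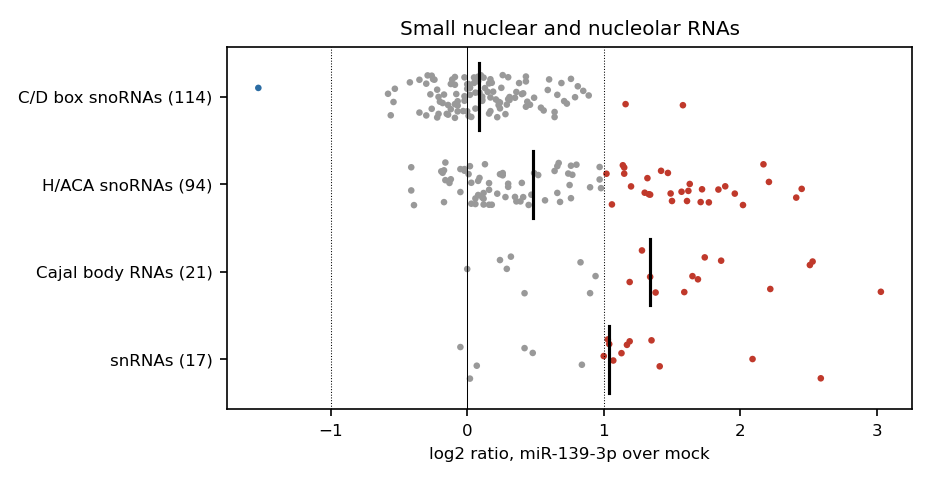
Log2 ratio of miR-139-3p over mock for each detected C/D box, H/ACA, Cajal body and small nuclear RNA (number detected in brackets); black bars are medians, dotted lines mark 2-fold, red points are at least 2-fold higher and the blue point lower. The medians are 0.09, 0.48, 1.34 and 1.04 from top to bottom, and the C/D box RNAs hold the only point past 2-fold on the low side.

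MYC fell from a signal of 1934 to 227 (-2.92, mock SD 0.306), and stood at -3.41 against the miR-143 mocks. MYC encodes the transcription factor that drives ribosome production, nucleotide synthesis and amino acid uptake. The outlier spot was dropped. It was at -0.45 on the miR-139-5p array, -0.63 on the miR-143-5p array and -1.08 on the one labelled miR-143-3p.

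Ribosome biogenesis genes were lower as a group. All 25 members were detected, 25 were below 0, 6 were at least 2-fold lower and none higher, and the median was -0.66, against 2.82% lower and a median of 0.01 for all genes. NOLC1, a chaperone of small nucleolar particles and Cajal bodies, fell from 1611 to 359 (-2.08, mock SD 0.0492). DDX21, a nucleolar helicase, fell from 1518 to 524 (-1.49), and NOP56 and FBL, core proteins of the C/D box particle, from 5663 to 2262 (-1.34) and from 13778 to 6195 (-1.19). NOP16 and POLR1B, a subunit of RNA polymerase I, had -1.16 and -1.01. DKC1, the pseudouridine synthase of H/ACA particles, had 1441 and 824 (-0.79), and NOP58, the partner of NOP56, had 5169 and 5282, a ratio just under 0.

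The median was -0.57 against the miR-143 mocks, where 5 of the 6 calls stayed and FBL stood at -0.88. The medians on the other arrays were 0.03, -0.21 and -0.35. The ribosomal proteins themselves did not go with it: 1 of 24 cytosolic ribosomal protein genes was lower, with a median of 0.08. Of 80 detected mitochondrial ribosomal protein genes 3 were lower, with a median of -0.15.

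The E-box CACGTG, which MYC with MAX can bind, was searched in promoters (RefSeq, GRCh38.p14, from 250 bases before to 50 after the start; the letters read the same on both strands). It was in 8 of the 20 ribosome biogenesis promoters (40%), in 13.6% of the promoters of lower genes, in 11.4% of those of higher genes and in 7.43% of all. The windows of FBL at chr19:39846355-39846384 (minus strand) and UTP4 at chr16:69132622-69132651 (plus strand), the lowest genes of the list that hold the motif, are shown with the motif in capitals.
FBL: gcgctcttttcCACGTGcgaaagccccgga
UTP4: gagcgcgcgcgCACGTGgggccggggcgga
UTP4, a component of the small subunit processome, had signals of 818 and 403 (-0.97), just inside 2-fold. The other genes of the list with the motif, NOP2, RRP9, UTP20, BYSL, PNO1 and PES1, had ratios of -0.57 to -0.09. All of these were nearer 0 than the list median of -0.66. NOLC1 and DDX21, the lowest of the list, were not among the 8 with the motif.

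Transporter genes for amino acids and vitamins were lower as well. All 21 detected transporters were below 0, 6 were at least 2-fold lower, and the median was -0.59. SLC7A5, which carries large neutral amino acids such as leucine, fell from 1470 to 195 (-2.73, mock SD 0.24). SLC7A1, a carrier of arginine and lysine and one of the candidates, fell from 284 to 52.3 (-1.96), SLC19A1, the reduced folate carrier, from 503 to 156 (-1.52), and SLC25A32, the mitochondrial folate carrier, from 825 to 272 (-1.50). SLC7A2 and the glutamine carrier SLC1A5 had -1.3 and -1.07, while SLC3A2, the heavy chain that pairs with SLC7A5, had 423 and 303 (-0.45). The median was also -0.59 against the miR-143 mocks, where 4 of the 6 calls stayed, SLC7A2 (-0.79) and SLC1A5 (-0.82) being short of 2-fold. It lay between -0.13 and 0.02 on the other arrays.

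Over all 262 detected solute carriers 20 were lower and 3 higher, with a median of -0.11, and against the miR-143 mocks 13 of the 20 and all 3 stayed past 2-fold. SLC2A1, the glucose transporter GLUT1, fell from 1733 to 390 (-2.07), and SLC39A11, a zinc carrier and a candidate, from 556 to 119 (-1.97). The 3 that rose were SLC2A14, SLC25A20, the carnitine carrier (73 and 278, 1.52), and SLC35B4 (62.8 and 165, 1.0).

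Genes that ATF4 induces when amino acids are short were on the low side, 3 of 20 at least 2-fold lower and none higher, with a median of -0.54, but the 3 were the transporters SLC7A5, SLC7A1 and SLC1A5. The median was -0.80 against the miR-143 mocks. ATF4 had 13690 and 14364 (0.02), and its targets ASNS (-0.64), TRIB3 (-0.71) and CHAC1 (-0.92) were inside 2-fold. Mitochondrial one-carbon enzymes MTHFD2 and SHMT2 fell from 1737 to 710 (-1.26) and from 2076 to 858 (-1.25, but -0.92 against the miR-143 mocks), 2 of 15 in the serine and one-carbon list. Glycolysis had 2 of 25 lower, SLC2A1 and the candidate hexokinase HK2 (623 and 107, -2.25), with a median of -0.26, and GAPDH stood at 13793 and 14313 (0.00).

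DNA replication genes were lower in each of their groups. Of the 24 members of the MCM helicase and pre-replication complex, all detected, 6 were at least 2-fold lower, 23 were below 0, and the median was -0.77. CDC45, part of the active helicase, fell from 1108 to 332 (-1.65, mock SD 0.162), MCM3 from 5443 to 2247 (-1.29), MCM4 from 940 to 406 (-1.15, mock SD 0.615), GINS2 from 1026 to 468 (-1.09) and MCM7 from 10763 to 5373 (-1.04). MCM2, one of the study's candidates, had -2.25. MCM6 stood just inside the limit (1624 and 827, -0.96), MCM5 near 0 (1185 and 1098, -0.11), and ORC4, of the origin recognition complex, was the one member above 0 (241 and 440, 0.78).

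Of 29 polymerase, clamp and ligase genes 7 were lower, with a median of -0.59. PCLAF, the clamp-associated factor the array names KIAA0101 and one of the candidates, had the lowest ratio (3225 and 243, -3.57). UHRF1, which guides maintenance methylation, fell from 1135 to 241 (-2.09), CHAF1B of the chromatin assembly factor from 916 to 291 (-1.56), PRIM1, the primase, from 517 to 172 (-1.44) and RPA2, of the single-strand binding complex, from 1151 to 407 (-1.43). The clamp itself, PCNA, had 2801 and 2937 (0.05).

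Supply of nucleotides had 5 of 20 genes lower, with a median of -0.49. DCTPP1, which removes faulty nucleotides, fell from 2598 to 799 (-1.67), IMPDH2, of guanine nucleotide synthesis, from 2110 to 817 (-1.35), DTYMK, thymidylate kinase, from 3039 to 1242 (-1.28), DUT, the dUTPase, from 3322 to 1406 (-1.24), and GART, of purine synthesis, from 1267 to 529 (-1.22, mock SD 0.0338). Thymidine kinase TK1 had 17253 and 18292 (0.03). Homologous recombination and Fanconi genes had 6 of 24 lower, with a median of -0.64, among them FANCG (1017 and 314, -1.61), BRCA1 (203 and 69.8, -1.24), the nuclease cofactor RBBP8 (636 and 274, -1.13) and the helicase BLM (370 and 156, -1.12).

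The size of the replication shift depended on the mock too. Against the miR-143 mocks the medians were -0.27 for the MCM list, -0.24 for the polymerases, -0.41 for nucleotide supply and -0.34 for recombination, and MCM4 stood at -0.04, MCM7 at -0.46 and MCM3 at -0.55. Of the calls, 2 of 6 in the MCM list, 4 of 7 in the polymerases, 3 of 5 in nucleotide supply and none of 6 in recombination stayed past 2-fold. CDC45 (-1.34), UHRF1 (-1.28), DCTPP1 (-1.40) and GART (-1.23) stayed past 2-fold against either mock. On the miR-139-5p array the 4 medians lay between -0.05 and 0.00, while the array labelled miR-143-3p gave -0.50, -0.42, -0.61 and -0.42 in that order. The miR-143-5p array gave -0.13, -0.23, -0.31 and -0.32. MCM7 (-1.63) and MCM4 (-1.21) were past 2-fold there, while MCM2 had -0.15 and MCM3 -0.05. Under the miR-143-3p label MCM3 had -1.01.

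Of 37 mitotic genes 3 were lower, CDC20, an activator of the anaphase ligase (629 and 262, -1.17), KIF2C, a kinesin that shortens microtubules (1489 and 675, -1.11), and the transcription factor FOXM1 (455 and 198, -1.08). None of the 3 calls stayed against the miR-143 mocks (CDC20 -0.84, KIF2C -0.45, FOXM1 -0.12). The median of the list was -0.25, which turned to 0.25 against those mocks, as the replication-dependent histones turned from -0.18 to 0.35. PLK1 had 281 and 306 (0.09).

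The E2F motif, TTTGGCGC or TTTCGCGC, was searched on both strands of the same promoters, overlapping matches counted. It was in 6 of 21 MCM and pre-replication promoters (28.6%) and in 5 of 25 polymerase promoters (20%), in 3.28% of those of lower genes, 2.19% of those of higher genes and 1.18% of all. The windows of MCM2 at chr3:127598402-127598431 (plus strand), MCM3 at chr6:52284728-52284757 (minus) and MCM7 at chr7:100101388-100101417 (minus) are shown with the matches in capitals, since these are the lowest genes with a match.
MCM2: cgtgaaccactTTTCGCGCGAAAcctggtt
MCM3: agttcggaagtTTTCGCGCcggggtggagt
MCM7: ggggggcgacgTTTCGCGCcaatttcggtt
MCM6 held the most matches, 4 in overlapping pairs, and its whole promoter window at chr2:135876394-135876693 (minus strand) reads as follows.
MCM6: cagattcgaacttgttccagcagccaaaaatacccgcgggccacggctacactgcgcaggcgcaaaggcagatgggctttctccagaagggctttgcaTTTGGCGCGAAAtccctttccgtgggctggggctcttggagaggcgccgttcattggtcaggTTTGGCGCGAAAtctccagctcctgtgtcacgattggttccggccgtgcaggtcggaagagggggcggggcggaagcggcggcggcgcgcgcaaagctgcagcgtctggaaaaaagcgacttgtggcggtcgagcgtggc
The matches began at -152, -148, -90 and -86 from the start. CDC45 and GINS2, which fell, were not among the 6, and CDC6, which has the motif, had a ratio of -0.22. The p53 decamer, searched in the same windows, was in 3 of 34 promoters of the p53 lists (8.82%), in 7.02% of those of higher genes and in 6.54% of all.

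**Figure D3:**
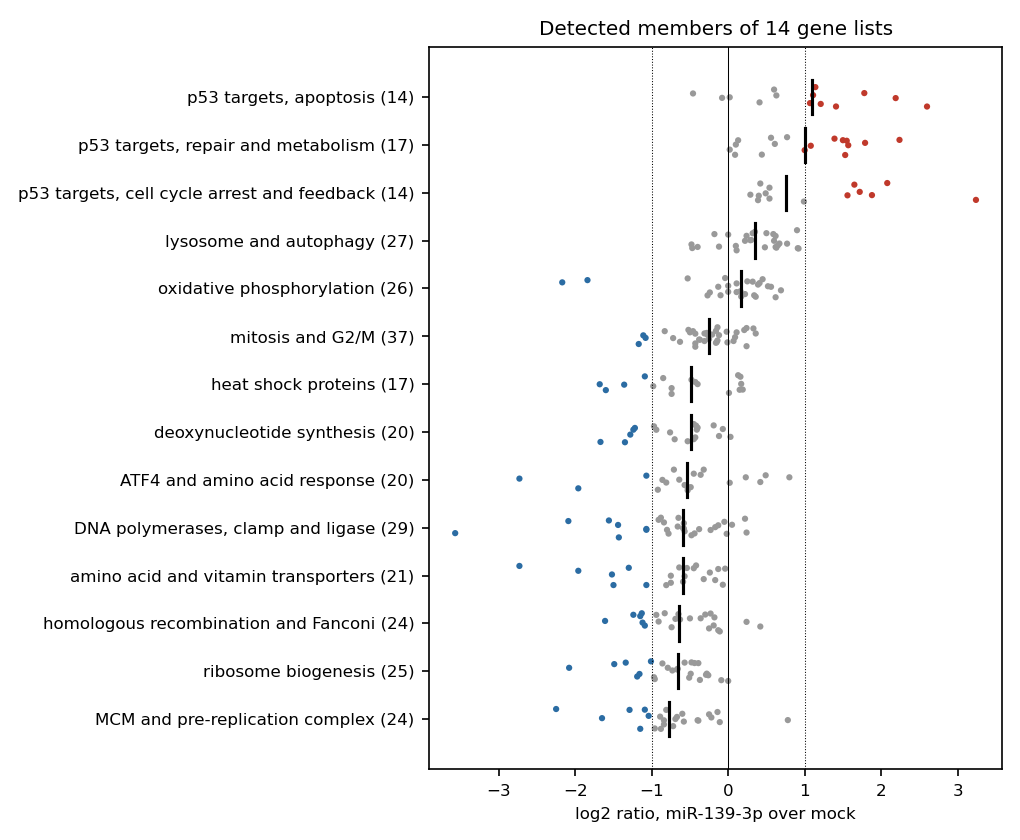
Log2 ratio of miR-139-3p over mock for each detected member of 14 gene lists (number detected in brackets); black bars are list medians, dotted lines mark 2-fold, red points are at least 2-fold higher and blue points lower. The p53 lists have medians of 0.76 to 1.09 and no blue point, and ribosome biogenesis and the transporters lie wholly below 0.

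Heat shock genes were lower in part. Of 17 detected, 4 were lower, with a median of -0.48. HSP90AA1, the inducible cytosolic HSP90, fell from 42105 to 14494 (-1.60, mock SD 0.397), HSPH1 from 2931 to 902 (-1.68), DNAJB1 from 970 to 359 (-1.36) and HSPE1, the mitochondrial cochaperonin, from 30364 to 14794 (-1.09). HSP90AB1, the constitutive counterpart of HSP90AA1, had 4725 and 3436 (-0.48) and HSPB1 11131 and 12625 (0.13). HSP90AA1 stood at -0.86 and HSPE1 at -0.59 against the miR-143 mocks, where 2 of the 4 calls stayed. Of 18 chaperones of the unfolded protein response 1 was lower, CANX, or calnexin (-1.14, but -0.48 against the miR-143 mocks), and HSPA5, the main chaperone of the endoplasmic reticulum, had 417 and 533 (0.33).

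Energy genes of mitochondria stood mostly near 0, with exceptions. Oxidative phosphorylation had 2 of 26 lower, and a median of 0.17, and the tricarboxylic acid cycle had none of 20 past 2-fold. ATP5MC1, a ring subunit of ATP synthase, fell from 1824 to 486 (-1.84), and SDHC, a membrane anchor of succinate dehydrogenase, from 1562 to 323 (-2.17), though its other probes gave -0.84 to 0.38. No lysosome or autophagy gene was past 2-fold, but the median of 27 was 0.35, and 0.15 against the miR-143 mocks, with ATP6V0D1, of the proton pump, at 0.92 (563 and 1097). RPIA, of the pentose phosphate pathway, fell from 1833 to 560 (-1.66), and SCD, the stearoyl-CoA desaturase, had -1.35 (-0.63 against the miR-143 mocks).

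Of 32 genes of the PI3K, AKT and mTOR pathway 3 were lower and none higher, with a median of -0.10. They were EIF4EBP1, the repressor of cap-dependent translation (1592 and 711, -1.14), IRS1, an adaptor of the insulin receptor (182 and 73.8, -1.05), and RHEB, the GTPase that activates mTOR (218 and 94.1, -1.03). AKT1 had 409 and 272 (-0.54) and AKT2 229 and 112 (-0.89). EIF4EBP1 alone of the 3 stayed past 2-fold against the miR-143 mocks, with IRS1 at -0.83 and RHEB at -0.93. Among receptor tyrosine kinases and ligands MET, the receptor of hepatocyte growth factor, fell from 3611 to 1255 (-1.52) and EPHA2 rose from 147 to 381 (1.18, but 0.74 against the miR-143 mocks), 2 of 25.

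Genes of the cell surface and of adhesion were lower in part. Of 15 kallikreins and membrane proteases 5 were lower, among them PLAU, the urokinase (1473 and 276, -2.29), KLK7 (470 and 118, -1.76) and KLK8 (1741 and 678, -1.33), and KLK6, a candidate, had -2.94. Of 10 S100 calcium-binding proteins 3 were lower, S100A2 (660 and 147, -1.97), S100A11 (713 and 341, -1.0) and the candidate S100A14 (-2.22). In the keratin list 3 of 14 were lower, KRT15 (497 and 141, -1.62), KRT7 (1191 and 576, -1.01) and the candidate KRT80 (133 and 47.2, -1.12), and that list also held KRTCAP2, which encodes no keratin. Mock levels varied for some of these genes, with mock SDs of 1.19 for KRT80, 1.12 for KRT7 and 0.772 for KLK7, which lay lower against the miR-143 mocks, at -3.23, -2.91 and -3.11. The list medians were -0.27 for the proteases, -0.43 for the S100 proteins and -0.25 for the keratins, and -0.85, -0.96 and -0.70 against the miR-143 mocks, where all 11 calls stayed. Some of these genes also fell on other HCT116 arrays over their own mocks. On the miR-139-5p and miR-143-5p arrays KRT80 had -0.94 and -1.14, KRT7 -0.86 and -0.81, and S100A2 -0.99 and -1.35. S100A14 had -1.06 on the miR-139-5p array, KLK7 -1.31 on the miR-143-5p array, and KLK6 -1.11 and -1.0 on the miR-143 arrays. KRT15 stayed between -0.13 and 0.06 on these arrays, and S100A11 stood above 0 (0.70, 0.72 and 1.16).

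Of 20 integrin, laminin and hemidesmosome genes 4 were lower and LAMB2 was higher (472 and 1079, 1.14). ITGA6 and ITGB4, which together form the hemidesmosome integrin, fell from 265 to 99.5 (-1.20) and from 1113 to 486 (-1.15), and LAMB1 from 367 to 166 (-1.03, with 0.05 at its other probe). The median was -0.20, and -0.54 against the miR-143 mocks, where LAMB1 (-0.61) and LAMB2 (0.49) were short of 2-fold. The kinase LIMK1, which acts on cofilin, fell from 516 to 170 (-1.45, but -0.83 against the miR-143 mocks), and paxillin (PXN) from 3634 to 763 (-2.22), though its other probe gave -0.15. No tight junction or desmosome gene of 21 was past 2-fold, and CDH1, E-cadherin, had 329 and 166 (-0.89).

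Among YAP targets and regulators 4 of 13 were higher and 1 lower, with a median of 0.36. LATS2, the kinase that holds YAP back, rose from 61.2 to 346 (1.97, mock SD 0.214), AJUBA from 262 to 958 (1.74), AMOTL2 from 610 to 1301 (1.05) and CCN1 from 402 to 906 (1.11), while F3, tissue factor, fell from 301 to 89.8 (-1.48). CCN1 had a mock SD of 1.15 and turned to -0.75 against the miR-143 mocks, where AMOTL2 stood at 0.17 and the median at 0.17. In the TGF-beta pathway 3 of 18 were higher, the differentiation inhibitor ID2 (1326 and 4666, 1.77) and the inhibitory SMAD6 (97.4 and 245, 1.05) and SMAD7 (52 and 153, 1.08), and ID2 was also higher on the miR-139-5p array (1.17). SMAD6 and SMAD7 stood at 0.70 and 0.51 against the miR-143 mocks, where ID2 stayed past 2-fold.

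Interferon-stimulated genes had 2 of 23 higher, IRF7 (179 and 634, 1.64) and IFIT1 (134 and 507, 1.68), with a median of 0.11, and NF-kB targets 2 of 11, RELB (352 and 986, 1.40) and BIRC3 (54.2 and 211, 1.40). IFIT1, RELB and BIRC3 had mock SDs of 1.18, 1.0 and 1.35, and stood at -0.34, -0.35 and -0.93 against the miR-143 mocks, while IRF7 stood at 1.3. On the miR-139-5p, miR-143-5p and miR-143-3p-labelled arrays, each over its own mock, BIRC3 was past 2-fold too (1.35, 1.03 and 1.46). RELB had 0.64, 0.13 and 0.52 on them. Why was not tested. Both list medians were -0.35 against the miR-143 mocks, and the NF-kB median was 0.33 against the mock of the same array. Zinc finger genes named ZNF had 12 of 361 higher and 1 lower, where 2.11% and 2.82% of all genes were, and a median of 0.13. The highest was ZNF789 (69.9 and 419, 2.11), though its other probes gave 0.29 and 0.36. ZNF226 (196 and 743, 1.75) and ZNF503 (1364 and 4230, 1.59) had 1.02 and 0.87 at their other probes. For ZNF778, ZNF112, ZNF678 and ZNF148, also called higher, other probes gave 0.24 or less. APOE, the lipid carrier, rose from 91.4 to 561 (2.24, mock SD 0.159), the one higher of 17 apolipoprotein and APOBEC genes.

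The processing of messages in the nucleus held single low genes. HNRNPA1, a splicing repressor, fell from 14147 to 3964 (-1.87), though its other probes gave -0.81 to -0.16, and 3 of 23 export and splicing genes were lower with a median of 0.03. In nuclear transport 2 of 31 were lower, the Ran exchange factor RCC1 (289 and 111, -1.19) and NUP205 of the pore scaffold (1452 and 653, -1.12), both short of 2-fold against the miR-143 mocks (-0.91 and -0.69), while importin KPNA2 had 12601 and 23560 (0.85). In DNA methylation and Polycomb 4 of 23 were lower, UHRF1, RBBP4 (-1.12), CBX2 (723 and 213, -1.62) and DNMT3B (404 and 148, -1.29), and CBX7 was higher (1.07). UHRF1 alone of the 5 stayed past 2-fold against the miR-143 mocks. The microRNA machinery had 1 of 24 past 2-fold, TNRC6C, a partner of Argonaute (262 and 606, 1.1), whose other probe gave 0.39.

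Where a gene was below background in miR-139-3p cells, only a bound could be given. C1QTNF5 had a bound of 2.24-fold lower (81.5 in mock and 22.7 in miR-139-3p cells) and ACTL8 of 2.05-fold lower (73.3 and 22.3). No gene below background in mock cells had a bound past 2-fold, the largest being 1.8-fold higher for SNORD94 (24.9 and 75.4). For these genes the bound equals the plain log2 ratio (-1.16, -1.03 and 0.85). Their dim levels stood above the lowest level of a probe well above background.

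The groups were set beside the other HCT116 arrays as values, each against its own mock. The 10 medians of the miR-139-5p array lay between -0.09 and 0.03. The miR-143-5p array ranged from -0.32 for recombination to 0.87 for Cajal body RNAs, and the array labelled miR-143-3p from -0.50 for the MCM list to 0.63 for Cajal body RNAs, with 0.51 for p53 arrest targets. The miR-139-3p medians were farther from 0 than these in each of the 10 groups. The lists had been chosen with earlier results of these data known, so this ranking holds for these groups only. Several lists that were not among the 10 ranked otherwise. Nucleotide supply had -0.49 for miR-139-3p and -0.61 under the miR-143-3p label. Mitotic genes had -0.25 and -0.74 in that order, MHC class I presentation -0.01 and 0.63, and NF-kB targets 0.33 and 0.50. Replication-dependent histones had -0.18 for miR-139-3p and 0.32 on the miR-139-5p array.

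**Figure D4:**
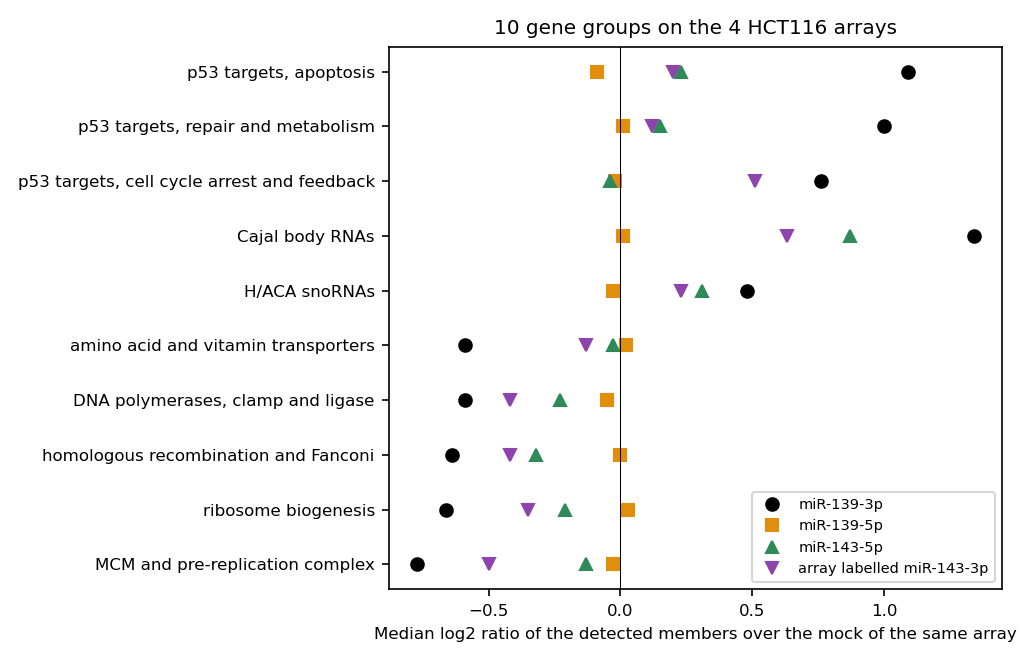
Median log2 ratio over the mock of the same array for 10 gene groups on the 4 HCT116 arrays, 1 symbol for each array. The miR-139-3p array (black circles) lies farthest from 0 in each group shown, from 1.34 for Cajal body RNAs to -0.77 for the MCM list. The miR-139-5p array (squares) stays within 0.09 of 0. Lists where miR-139-3p does not lie farthest, among them nucleotide supply and mitotic genes, are not among the groups shown.

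The plot of 3 mock references sets the same 10 medians against the mock of the same array, the mock of the miR-139-5p array and the mean of both miR-143 mocks. Each group kept its sign against every mock. Transporters, ribosome biogenesis and Cajal body RNAs kept most of their size, at -0.59, -0.57 and 1.53 against the miR-143 mocks. The p53 lists and the replication and recombination lists had medians nearer 0 there.

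**Figure D5:**
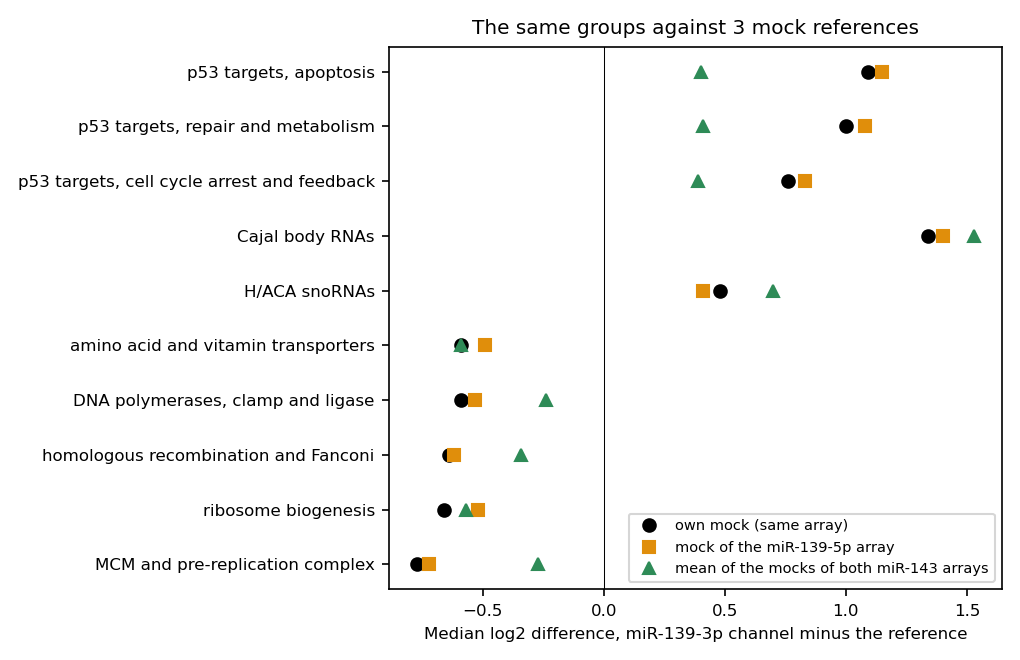
Median log2 difference of the miR-139-3p channel from 3 references for 10 gene groups: its own mock (circles), the mock of the miR-139-5p array (squares) and the mean of the mocks of both miR-143 arrays (triangles). Triangles lie nearer 0 than circles for the p53 lists (0.39 to 0.41) and for the MCM list (-0.27), and farther out for Cajal body RNAs (1.53).

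The seed could be looked for only in the probes, since no transcript sequences were used here. A message that miR-139-3p can pair with holds CGTCTCC, complementary to bases 2 to 8, or GTCTCCA, complementary to bases 2 to 7 and followed by A. Of 150 detected genes whose 60-base probe held either heptamer, 14 were at least 2-fold lower (9.33%) and 3 higher (2%), and their median was -0.01. Of the 20558 genes whose probe held neither, 2.78% were lower and 2.11% higher, with a median of 0.01. The share of lower genes thus differed between the groups and the median hardly did, and no test was made.

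COX8A, with a match in its probe, was the lowest of the 14. GLRX5, a glutaredoxin of iron-sulphur cluster assembly, fell from 3192 to 652 (-2.24), and also had -2.38 on the miR-139-5p array. LAGE3, of a complex that modifies transfer RNAs, fell from 2009 to 533 (-1.86), ATP5MC2, a ring subunit of ATP synthase, from 6905 to 2061 (-1.76), and EIF4A3, of the exon junction complex, from 6541 to 1980 (-1.73). The other 9, C1orf198, CMC2, STX10, PSMD1, NUP205, PRSS36, SHPK, PDE4A and HEYL, had ratios of -1.68 to -1.04. The 30 bases around the match (hg19, strand of the probe) are shown for 3 of them with the match in capitals, COX8A at chr11:63743923-63743952 (plus), ATP5MC2 at chr12:54059077-54059106 (minus) and EIF4A3 at chr17:78109161-78109190 (minus).
COX8A: gacctcttgatGTCTCCAtggtgacctcct
ATP5MC2: gccatgtgaaggagcCGTCTCCAcctccca
EIF4A3: ctttcttctcataaatggcctgcCGTCTCC
ATP5MC2 held both heptamers in 1 run. A match in these windows is a description and no shown binding site, and a gene without one may hold it elsewhere in its message.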

How the data were processed

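Total RNA of HCT116 cells was measured on 1 two-colour Agilent array per microRNA. Per the file headers, the deposited scanner files gave mean and background intensity per spot in both channels, a processed intensity and the scanner's log10 ratio of Cy5 over Cy3. The series value table deposited by the authors held the same log10 ratios as the scanner files. From the intensities, control spots were removed after normexp background correction (offset 50), loess was applied within the array, outlier spots were dropped, and spots of a probe were averaged (limma 3.58.1, R 4.3.3, Python 3.11.15). Levels were set across arrays by Aquantile. A gene was read from its brightest probe over the 8 arrays, and named through RefSeq symbols.

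The array had a median Cy3 signal of 22.9 over a background of 18 and a median Cy5 signal of 23.9 over 20. Of the probes, 44.4% and 47% were well above background, and no spot was saturated. Probes printed 10 times (300 of them) had a median SD of 0.0615 (log2) between spots. Precision is limited by having 1 array. A bound set a dim probe at the lowest level of any probe well above background, or at its own level where that was higher. The scripts were tested on simulated data. No column of values lacked a sample.

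There was no test. Counts past 2-fold and list medians stood in for one. Genes were named by rule: the 12 lowest and 12 highest genes outside the 29 candidates of the study, with probes of 1 sign, no outlier spot and signal in both channels, members of 53 gene lists, up to 4 members each way of 37 name families, bounds, and lower genes with a seed match in the probe. The members and lists were chosen with earlier results of these data known. Small nuclear RNAs, SNHG21, RN7SL1, TERC, RMRP, RPPH1 and the ribosomal RNAs were named after their values were seen. Alternatives were other mocks, centring, offsets, scanner ratios, all probes and the filter on dim probes. Some items are not reported here.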

Additional observations from a re-analysis of the deposited data

How the results depend on the processing

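No paired analysis was possible because each microRNA had 1 array. Of 120 list medians recomputed for 10 groups under other settings, 85 moved by less than the mock spread, 35 by more and none changed sign. The other 80 lists were less stable: of 880 medians 552 moved by less and 328 by more. Of these, 16 moved past 0 against the miR-143 mocks, 11 minus the median of the other 7 arrays and 10 against the miR-139-5p channel. Against the miR-143 mocks such a count is a weak check, because the mock spread takes in the gap between the mocks. The p53 arrest median, 0.76 and 0.39 against those mocks, counted as moved by less with a spread of 0.407. The counts of genes at least 2-fold lower and of genes at least 2-fold higher depended on the background: 925 and 692 without correction, 1475 and 1382 with an offset of 1, and 2033 and 2128 from the scanner ratios, which differ in normalisation too. The cause was not tested.

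Against the miR-143 mocks the medians were 1.53 (Cajal body RNAs), 0.70 (H/ACA RNAs), -0.24 (polymerases), -0.27 (MCM), -0.34 (recombination), 0.40 and 0.41 (p53 apoptosis and repair) and -0.57 (ribosome biogenesis). Cajal body RNAs stood at 1.28 over all probes, 1.43 against the miR-139-5p channel, 1.41 minus the other 7 arrays, 1.40 against the miR-139-5p mock, 1.43 with an offset of 1 and 1.70 by the scanner. Ribosome biogenesis stood at -0.60 with median centring, -0.56 against the miR-139-5p channel, -0.41 minus the other arrays, -0.52 against the miR-139-5p mock, -0.71 without background correction, -0.69 with an offset of 1, -0.62 by the scanner and -0.62 without the candidates (added after seeing the data). Recombination stood at -0.38 minus the other arrays, and at -0.85, -0.96 and -1.01 without correction, with an offset of 1 and by the scanner. Transporters stood at -0.49 against the miR-139-5p mock, and at -0.67, -0.66 and -0.76 in those settings. Over all probes p53 repair was 0.72. H/ACA RNAs were 0.74 with an offset of 1 and 0.76 by the scanner, which also gave -0.83 for polymerases and 1.26 for p53 arrest.

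Against the miR-143 mocks BIRC3 (-0.93), CCN1 (-0.75), IFIT1 (-0.34), RELB (-0.35), H3C2 (0.21) and H4C5 (0.10) changed sign, as did GLRX5 (0.24) against the miR-139-5p channel and ACTL8 (0.02) minus the other arrays. The cause was not tested.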
